A study of Homo sapiens with 8 samples.

Results

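AP-1 and immediate early genes were read in MonoMac 6 cells, an established line derived from acute monocytic leukaemia, with and without the cytokine APRIL. The members were named by symbol and not by a rule on measured values, but with earlier results of these data known. They were the AP-1 genes JUN, JUNB, JUND, FOS, FOSB and FOSL2, with EGR1, IER2 and DUSP1. The deposited table held 8 of these 9 genes among its 11530, and all 8 passed the filter on low values that kept 11257 genes. FOSB had no row, so its expression was not analysed here. APRIL, the product of TNFSF13, was given to 4 libraries at 100 ng/mL for 24 h, and 4 libraries were controls. The labels describe the APRIL medium as free of serum, give 10% serum for routine culture and leave the serum of the control medium unstated, and the series text adds unnamed baseline cytokines to both groups. Serum is a classical inducer of this gene class, so an effect of APRIL and a difference in serum cannot be told apart. The headers name only the group, and a library is therefore referred to by its group and by its place among that group's columns (APRIL column 1, for example), which is not a replicate number. Nothing says whether they came from separate cultures, and p-values therefore measure only the spread between these libraries.

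AP-1 is a dimeric transcription factor in which a JUN family protein pairs with a FOS family protein, or with another JUN protein, through leucine zippers. Immediate early genes are transcribed within minutes of a growth or stress signal without new protein synthesis, and most of their mRNAs decay quickly. MAP kinases acting on serum response factor (SRF) with its ETS-family partners, and on CREB-type factors, switch on FOS and EGR1. In monocytic cells AP-1 takes part in differentiation and in inflammatory gene expression. After a day of stimulation the levels measured are those long after any first burst.

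The promoter stretches of 6 members are shown with their letter matches to elements known as a class for signal-dependent transcription. Each runs from 150 to 51 bases before the start site in RefSeq (GRCh38.p14, a later build than that of the deposited data), 5′ to 3′ on the gene's strand. Capitals mark the core of a cAMP response element (TGACG, or CGTCA on the other strand), its full palindrome TGACGTCA, or a CArG box, the element bound by SRF. The same stretch of JUN, FOSB and FOSL2 also held the core and is not printed.
JUNB, chr19:12791336-12791435, plus strand: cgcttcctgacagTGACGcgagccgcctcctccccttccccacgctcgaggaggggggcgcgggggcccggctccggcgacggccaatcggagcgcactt
JUND, chr19:18281673-18281772, minus strand: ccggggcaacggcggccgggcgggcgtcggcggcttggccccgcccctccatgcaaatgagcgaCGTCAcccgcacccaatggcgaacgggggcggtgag
IER2, chr19:13150261-13150360, plus strand: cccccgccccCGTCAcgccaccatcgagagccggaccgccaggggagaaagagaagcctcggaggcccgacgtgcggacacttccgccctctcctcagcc
EGR1, chr5:138465329-138465428, plus strand: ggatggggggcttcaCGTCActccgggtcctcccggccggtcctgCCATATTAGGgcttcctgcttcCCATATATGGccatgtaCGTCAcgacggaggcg
FOS, chr14:75278678-75278777, plus strand: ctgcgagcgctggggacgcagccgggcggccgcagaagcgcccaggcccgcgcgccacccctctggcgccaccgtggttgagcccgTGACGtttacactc
DUSP1, chr5:172771246-172771345, minus strand: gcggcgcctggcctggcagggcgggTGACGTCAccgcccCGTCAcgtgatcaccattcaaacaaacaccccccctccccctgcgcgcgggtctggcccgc

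Over the whole RefSeq window of 300 bases (250 before to 50 after the start site), searched on both strands, the core TGACG was found in all 9 members, FOSB included, against 24.5% of 34796 windows of that length. The palindrome TGACGTCA, which contains the core, was found in JUND and DUSP1 and in 1.84% of all windows. Within this window a CArG box was found in EGR1 alone among the 9, at 105 and 83 bases before the start, against 1.3% of windows. Bases farther upstream were not searched, so a CArG box there would be missed. The pattern TGANTCA, which takes in the classical AP-1 site, was found in FOSL2 alone (as TGACTCA), against 7.73% of windows. Variants of this site were not searched. These matches describe the letters in the windows and show no binding. The stretch printed was chosen after the matches were seen.

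None of the 8 genes changed between APRIL and control by limma's test with Benjamini-Hochberg adjustment over all genes, and 0 of 11257 genes were called (background 0%). The largest differences were in JUNB, JUND and IER2, at +0.60 ± 0.24, +0.52 ± 0.24 and +0.36 ± 0.19 (log2, APRIL minus control, ± standard error, 4 libraries per group). By sign, 7 members were positive and FOSL2 was negative, with a median of +0.12 where all tested genes had -0.0053 and 49.3% were positive. JUNB was the 1 member at an unadjusted p under 0.05, a rule that 11.9% of all tested genes met (1344 genes). In 0 of the 8 did the APRIL values lie wholly apart from the control values, which 7.81% of all genes showed. Once the dependence on transcript length and GC content had been taken out of each library, 3 of the 8 were positive, against 47.5% of all genes, and the members' median was -0.023.

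**Figure D1:**
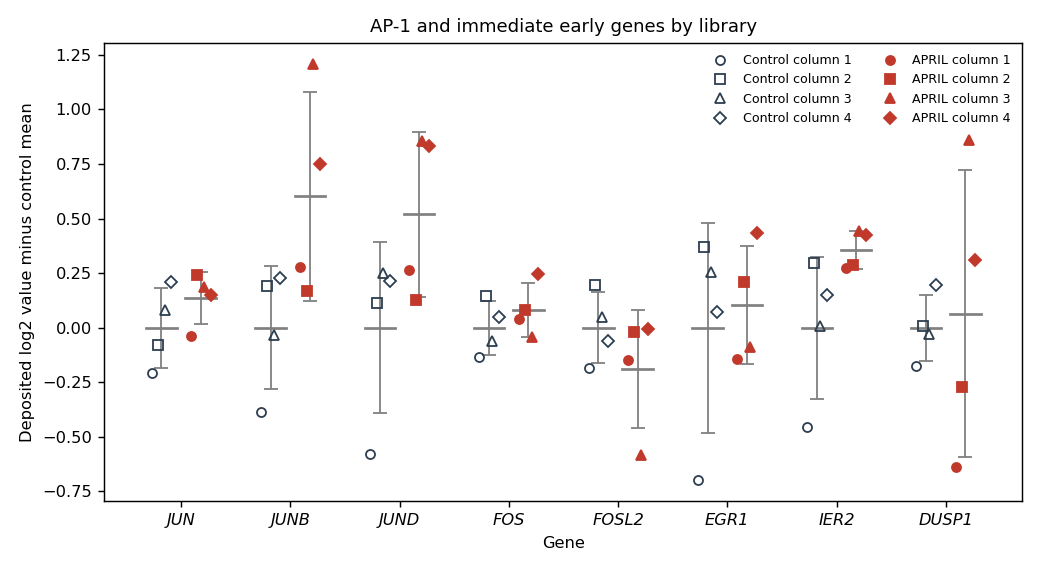
Deposited log2 value of each gene in each library minus that gene's control mean (y axis, log2), with filled red symbols for APRIL and open dark symbols for control, and grey bars for the mean ± SD of 4 libraries. Control column 1 (open circle) is the lowest control in all 8 genes, and the groups overlap in every gene.

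JUNB encodes a JUN family protein that often restrains JUN-driven proliferation and is active in myeloid differentiation. Its deposited log2 value was 5.51, 5.40, 6.44 and 5.98 in the APRIL libraries, in column order, and 4.84, 5.42, 5.20 and 5.46 in the controls. APRIL columns 1, 3 and 4 stood above every control, and APRIL column 2 stood just under control columns 2 and 4. The group values were 5.83 ± 0.48 and 5.23 ± 0.28 (SD, n = 4), a difference of +0.60 with a 95% interval of 0.068 to 1.14 (limma adjusted p = 0.400). Leaving out APRIL column 3 gave +0.40, leaving out control column 1 gave +0.47, and leaving out APRIL column 2 gave +0.75. Without both APRIL column 3 and control column 1, JUNB was at +0.27. Its unadjusted p was then over 0.05. The same held when APRIL column 3, APRIL column 4, control column 1 or control column 3 was left out alone.

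JUND, the JUN family member that is broadly expressed in resting cells and least dependent on growth signals, gave 5.89, 5.75, 6.48 and 6.46 with APRIL. The controls were 5.04, 5.74, 5.88 and 5.84. APRIL columns 3 and 4 were high, control column 1 was low, and the other 5 libraries lay close together. The difference of +0.52 had a 95% interval of -0.003 to 1.04 (limma adjusted p = 0.400). JUND was at +0.33 without control column 1 and +0.22 when APRIL column 3 was left out as well.

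JUN, the partner of FOS in the classical AP-1 dimer and a target of JNK, gave 4.19, 4.47, 4.41 and 4.38 with APRIL and 4.02, 4.15, 4.31 and 4.44 in control. The 8 values ran through each other, and the difference was +0.14 ± 0.14, with a 95% interval of -0.18 to 0.45 (limma adjusted p = 0.609). It was +0.066 without control column 1 and -0.045 with library quality weights, which count a library less the more it scatters. APRIL column 1 had a weight of 5.46, and APRIL columns 2, 3 and 4 had 1.33, 0.117 and 1.09. The weighted APRIL mean therefore followed APRIL column 1 most, here the lowest APRIL library.

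FOS, the immediate early partner of the JUN proteins, was at 5.03, 5.07, 4.94 and 5.24 with APRIL and at 4.85, 5.14, 4.93 and 5.04 in control. The SD was 0.12 in both groups, the narrowest spread of any member over the 8 libraries together. Its difference was +0.08 ± 0.13 with a 95% interval of -0.21 to 0.37 (limma adjusted p = 0.743). FOSL2, which encodes the FOS relative FRA-2, was the one member lower with APRIL by its mean. It gave 7.17, 7.30, 6.74 and 7.31 with APRIL and 7.13, 7.51, 7.36 and 7.26 in control, where APRIL column 3 alone lay below the control range. The difference in FOSL2 was -0.19 ± 0.16 (limma adjusted p = 0.526) and was -0.058 without APRIL column 3.

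EGR1, a zinc finger factor that drives monocyte differentiation genes and is the member with CArG boxes in its printed promoter, gave 6.67, 7.02, 6.72 and 7.25 with APRIL. The controls gave 6.12, 7.18, 7.07 and 6.89. Control column 1 was the lowest library and the other 7 overlapped. The difference was +0.10 ± 0.24 (limma adjusted p = 0.822). Leaving out control column 1 turned it to -0.13 and leaving out APRIL column 4 to -0.0075. It was -0.0097 after the length and GC trends were removed.

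IER2, a short-lived nuclear protein of the immediate early response, was at 2.76, 2.77, 2.93 and 2.91 with APRIL. In control it was at 2.03, 2.78, 2.49 and 2.63. The APRIL libraries were tightly grouped (SD 0.089), control column 2 lay inside their range and the other controls lay below it. The difference of +0.36 had a 95% interval of -0.058 to 0.77 (limma adjusted p = 0.400). IER2 was at +0.21 without control column 1 and +0.18 without APRIL column 3 and control column 1.

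DUSP1 encodes a nuclear phosphatase that switches off p38, JNK and ERK and is itself induced by them. It was at 0.20, 0.57, 1.70 and 1.15 with APRIL and at 0.67, 0.85, 0.81 and 1.03 in control. APRIL columns 1 and 2 lay below every control and APRIL columns 3 and 4 above every control, so the APRIL libraries spread over an SD of 0.66 against 0.15. These values rest on 24, 59, 20 and 52 reads with APRIL and 24, 18, 24 and 45 in control. Counting error alone gives APRIL column 3 a 95% exact Poisson interval of 1.01 to 2.31 on the log2 scale and APRIL column 1 one of -0.43 to 0.76. The DUSP1 difference of +0.06 ± 0.31 (limma adjusted p = 0.922) was -0.20 without APRIL column 3, -0.49 with quality weights (unadjusted p under 0.05, as for 17.0% of all genes), and -0.077 by voom on the recovered reads. The quality weights counted APRIL column 1 most, the lowest DUSP1 library.

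Whole reads could be recovered from the deposited values for all 8 members, which gives the depth behind them. FOSL2 had the most, 288 to 2705 reads per library, and JUNB had 175 to 675. FOS had 86 to 599 reads, IER2 76 to 437, JUN 45 to 300, JUND 65 to 278 and EGR1 36 to 285. Over 11131 recovered genes (96.5% of the table) the libraries held 906945 to 5212969 reads, with the fewest in APRIL column 3. Counting error covers sampling of reads only, since the reads carry no molecular identifiers. By voom on these reads, 3 members (JUNB, JUND and IER2) were at an unadjusted p under 0.05, which 10.6% of genes met, and none passed after adjustment (0 of 11131 genes called, background 0%).

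The deposited values hold a divisor per gene that does not follow gene length, 300 for EGR1 and 8746 for IER2, so they cannot rank the genes. Levels were therefore computed from the recovered reads as RPKM (reads per kilobase, set to a common depth), scaled by the length of the longest GENCODE transcript and by each library's total of recovered reads. On this scale the order of the control means was FOSL2 at 78.2 ± 8.6 (SD, n = 4), JUNB at 63.6 ± 11.7, FOS at 50.1 ± 4.2, JUND at 26.6 ± 6.3, IER2 at 23.6 ± 4.9, EGR1 at 15.5 ± 4.4, JUN at 13.7 ± 1.8 and DUSP1 at 6.68 ± 0.75. Neighbours JUND and IER2 differed by less than their spread, as did EGR1 and JUN. FOSL2 and JUNB overlapped in control (68.5 to 88.9 against 48.0 to 73.7), and so did JUNB and FOS (45.5 to 55.0).

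**Figure D2:**
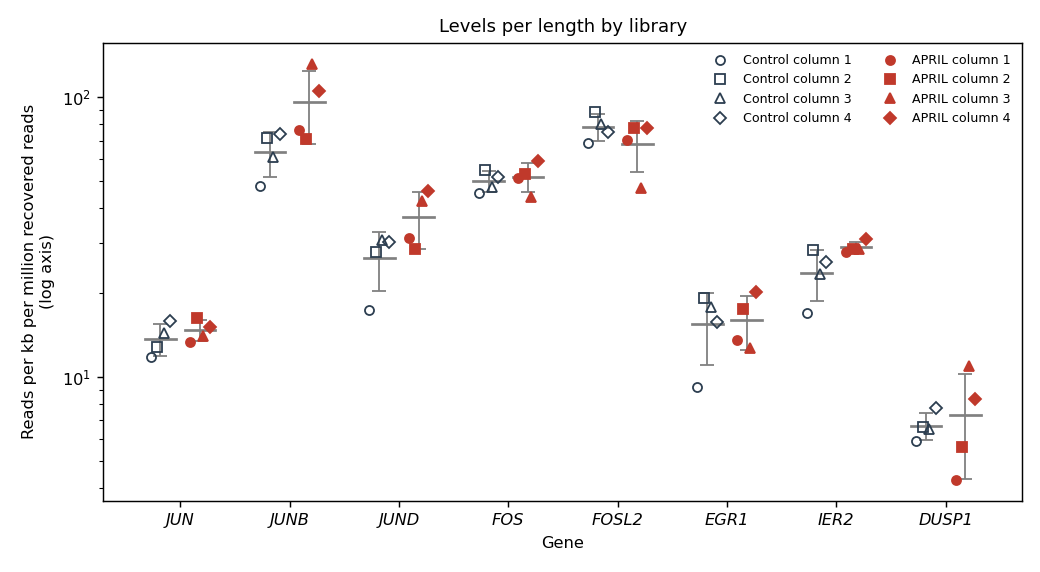
Level from recovered reads in RPKM (y axis, log scale), by longest transcript and library total, for each gene and library, with grey bars for the mean ± SD of 4 libraries. JUNB, FOS and FOSL2 stand highest, and DUSP1 at 4.27 to 10.9 is the lowest gene in every library.

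With APRIL the mean levels per length were 96.2 ± 28.3 for JUNB, 68.2 ± 14.3 for FOSL2, 52.0 ± 6.3 for FOS, 37.2 ± 8.6 for JUND, 29.1 ± 1.4 for IER2, 15.9 ± 3.5 for EGR1, 14.7 ± 1.3 for JUN and 7.28 ± 2.95 for DUSP1. JUNB lay above FOSL2 in APRIL columns 1, 3 and 4 and below it in APRIL column 2 and every control. The gap was widest in APRIL column 3, where JUNB was at 132 and FOSL2 at 47.3, and in control column 4 they were close, at 73.7 and 75.0.

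Within the JUN family, JUNB was the most abundant per length in all 8 libraries, JUND the next and JUN the lowest. JUNB made up 63.1%, 61.3%, 70.0% and 63.2% of the 3 with APRIL and 62.3%, 63.7%, 57.6% and 61.5% in control. JUN made up 10.4% ± 2.8 with APRIL and 13.3% ± 1.6 in control (SD, n = 4), and JUND 25.2% ± 2.2 and 25.4% ± 2.7. Of FOS and FOSL2 together, FOS was 42.2%, 40.8%, 48.1% and 43.3% with APRIL and 39.9%, 38.2%, 37.3% and 40.9% in control. FOSL1, also of the FOS family, was not a member and is left out of this share. By limma it was at +0.067 ± 0.15, or -0.30 with the length and GC trends removed. The shares overlapped between the groups, and as they were computed after the values were seen they are a description with no test.

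Control column 1 was the lowest control library in all 8 members, a position it held in 36.0% of all tested genes. It was the lowest of all libraries in 6 of the 8, against 25.7% of genes. APRIL column 3 was the highest library in JUNB, JUND, IER2 and DUSP1 (4 of 8, and 33.6% of all genes). It was the lowest in FOSL2 (1 of 8, and 32.9% of all genes). After removal of the length and GC trends, control column 1 was the lowest control in 3 of 8, against 29.2% of genes. It was then the lowest of all libraries in 2 of 8, against 16.5%.

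The 3 genes with the largest differences were also the members richest in GC. GC content of the longest transcript was 69.7% in JUND, 64.9% in JUNB and 61.7% in IER2, above that of 99.7%, 96.7% and 91.1% of 10792 tested genes, whose median was 47.9%. The other members ran from 52.6% in FOS to 56.7% in JUN. JUNB and JUND were short, at 1820 and 1863 bases against a median of 3632, while FOSL2, the negative member, was the longest at 6708 bases. Over the 10792 genes, which are not independent replicates, the difference between APRIL and control went up with GC content (Spearman's rho = 0.51) and down with length (rho = -0.54).

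**Figure D3:**
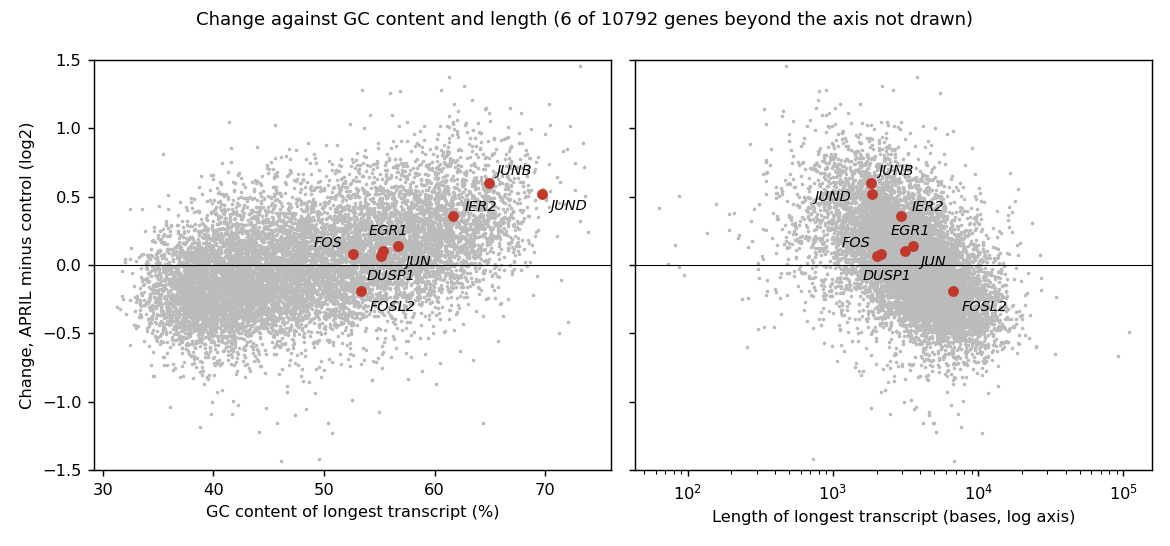
Change between APRIL and control (y axis, log2) of 10786 genes against GC content (left, %) and length (right, bases, log axis) of the longest transcript, with the 8 members in red. Of the 10792 tested genes with a length and GC content, 6 lie beyond the axis limit of 1.5 and are not drawn. JUNB, JUND and IER2 lie at the GC-rich end within the grey cloud, and FOSL2 at the long end.

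After each library's trends with length and GC content were removed, JUNB was at +0.15 ± 0.11 (limma adjusted p = 0.600), IER2 at +0.10 ± 0.11 and JUND at -0.037 ± 0.10. The part removed with the trends was 0.46 log2 units in JUNB, 0.56 in JUND and 0.26 in IER2, beside deposited differences of 0.60, 0.52 and 0.36. JUND then stood at 5.82, 5.83, 5.79 and 6.03 with APRIL and at 5.84, 5.80, 6.12 and 5.85 in control. JUNB stood at 5.44, 5.48, 5.85 and 5.66 against 5.49, 5.49, 5.38 and 5.48. APRIL columns 3 and 4 were still the highest JUNB libraries, while the highest JUND library was control column 3 and the lowest APRIL column 3.

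JUN was then at +0.031, FOS at -0.085, FOSL2 at -0.099 and DUSP1 at -0.16, and the 95% intervals of all 8 members included 0. The interval for JUNB was -0.095 to 0.39 and that for JUND -0.27 to 0.19. In that fit 0 of 8 members were at an unadjusted p under 0.05, against 8.25% of all genes, and 0 genes were called (background 0%). Whether the trends are technical was not tested.

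**Figure D4:**
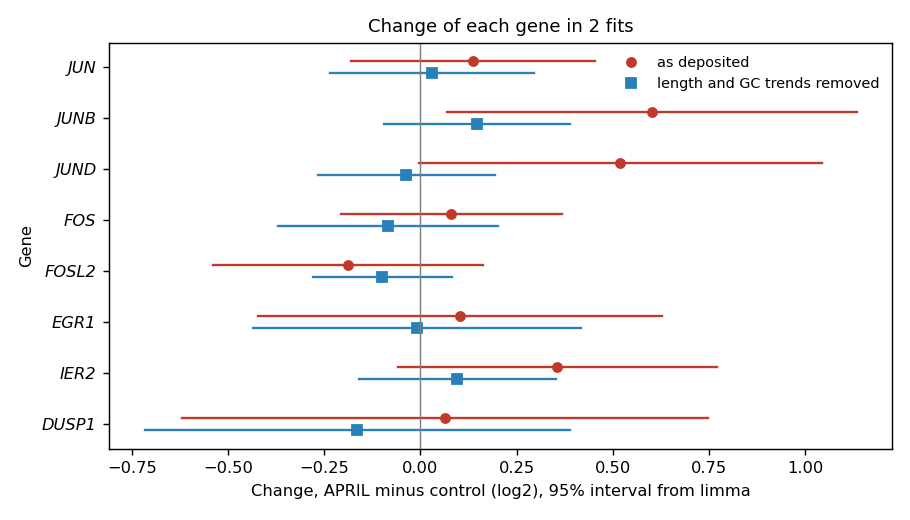
Change of each gene (x axis, log2, APRIL minus control) with its 95% interval from limma, as deposited (red circles) and with each library's length and GC trends removed (blue squares). The red points of JUNB, JUND and IER2 lie at 0.60, 0.52 and 0.36 and their blue points at 0.15, -0.037 and 0.10.

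Over the 8 libraries Pearson's r was 0.92 between JUNB and JUND, 0.87 between JUND and IER2, 0.82 between JUNB and IER2 and 0.78 between FOS and EGR1, a description in which the genes share libraries and depth. The median over the 28 pairs was 0.52, and with the trends removed it was 0.040. JUNB and JUND were then at r = -0.26, and FOS and EGR1 at 0.42. Other pairs held or went up: FOSL2 with EGR1 was at 0.54 and then 0.76, FOS with FOSL2 at 0.49 and then 0.67, and JUNB with DUSP1 at 0.72 and then 0.63.

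The tested genes most like each member by Pearson's r over the 8 libraries, 3 for each, had r of 0.94 to 1.00. They were picked as the highest of all tested genes over few libraries, so high values are built in. With the trends removed the same pairs ran from -0.49 to 0.96. JUNB was most like MVB12A, NUBP2 and PCYT2 (r = 0.99 to 1.00, and 0.88 to 0.95 with the trends removed). JUND was most like ORAI1, CLN6 and TCL1A, where r was 0.73, 0.12 and 0.47 with the trends removed. FOSL2 was most like SRCAP, NDST1 and CREBBP (0.98 to 0.99, and 0.83 to 0.88). The nearest to JUN was SUGP1, to FOS ZC3H3, to EGR1 LRP10, to IER2 DBNL and to DUSP1 NUDT3. In that order these were at r = 0.64, 0.84, 0.60, 0.49 and 0.68 with the trends removed.

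The lists of the pathway that follow are described by counts and medians, and the smallest limma adjusted p among their genes was 0.400. Signal-dependent factors, known as a class to act on immediate early promoters, had the median farthest from 0 of these lists. Their binding was not measured here. Of 11 genes for SRF, its partners and CREB-type factors, 8 were negative (median -0.35), 0 passed the adjusted threshold and 3 were lower at an unadjusted p under 0.05, where 5.69% of all genes were lower. ELK3, an ETS-family partner of SRF, was at 6.90 ± 0.10 with APRIL and 7.33 ± 0.15 in control (SD, n = 4), a difference of -0.43 ± 0.12 with the groups apart. ATF1, a CREB relative that binds the palindrome shown above, was at 3.75 ± 0.12 and 4.18 ± 0.14, a difference of -0.43 ± 0.14, also with the groups apart. MKL2, an actin-regulated SRF coactivator, gave -0.46 ± 0.20, EP300, a histone acetyltransferase recruited by CREB, gave -0.59 ± 0.30, and CREM gave +0.30 ± 0.35. SRF itself was at +0.021 and CREB1 at -0.19, and with the trends removed SRF was at -0.13 and CREB1 at +0.10. The list's median was -0.16 with the trends removed, where ELK3 was at -0.28, ATF1 at -0.41, MKL2 at -0.20 and EP300 at -0.43. Without APRIL column 3 the median was -0.22 and EP300 was at -0.24. CREM was at +0.20 without APRIL column 3, -0.050 without control column 2, +0.49 without control column 3 and +0.50 without control column 4.

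Of 9 tested genes for other AP-1 partners, 6 were positive (median +0.09, or -0.063 with the trends removed) and 0 passed the adjusted threshold. ATF7, a bZIP factor activated by p38 and JNK, was at 3.47 ± 0.27 with APRIL and 4.03 ± 0.26 in control, a difference of -0.56 ± 0.19 with the groups apart. BATF3, a JUN partner of dendritic cells, was at +0.78 ± 0.33, and its values of 5.89, 6.19, 7.22 and 5.97 with APRIL overlapped the controls at 5.76, 6.03, 4.85 and 5.49. Both, 2 of the 9, were at an unadjusted p under 0.05 by limma, against 11.9% of all genes. BATF3 was at +0.48 when APRIL column 3 was left out. After removal of the trends ATF7 was at -0.39 and BATF3 at +0.74.

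Other immediate early genes gave 18 positive and 7 negative differences of 25 tested (median +0.11, or -0.030 with the trends removed). None passed the adjusted threshold and 0 were at an unadjusted p under 0.05. IER3, an inducible survival gene, had the largest positive difference at +0.50 ± 0.30, and KLF10, a TGF-beta early gene, the largest negative at -0.31 ± 0.16, with its groups apart. IER3 was at +0.13 after removal of the trends and +0.031 with quality weights. It was at +0.26 when APRIL column 3 was left out and +0.30 when control column 2 was. MYC was at +0.006 ± 0.15 and the mRNA decay factor ZFP36 at +0.063 ± 0.20. With the trends removed MYC was at -0.16 and ZFP36 at -0.24.

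The ERK, JNK and p38 kinases upstream were balanced, with 15 positive and 14 negative of 29 (median +0.01) and 0 called. MAP2K4, the kinase that activates JNK, gave +0.34 ± 0.15 with the groups apart and +0.47 with the trends removed, and MAP2K2, an activator of ERK, gave +0.47 ± 0.19, or +0.23 with the trends removed. The kinase kinase MAP3K1 was at -0.32 ± 0.14, RPS6KA3 at -0.35 ± 0.15 and BRAF at -0.40 ± 0.19, and these 3 were at -0.081, -0.073 and -0.097 with the trends removed. MAPK phosphatases and feedback inhibitors, the class of DUSP1, were negative in 11 of 14 (median -0.13, 0 called). RASA1, which switches off RAS, gave -0.48 ± 0.20 with the groups apart, and DUSP2 +0.25 ± 0.29. After removal of the trends RASA1 was at -0.31 and DUSP2 at -0.20. RASA1 was at -0.27 when APRIL column 3 was left out. DUSP2 was at +0.06, +0.44 and +0.15 when control column 1, 2 or 3 was left out, and at +0.13 when APRIL column 4 was.

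Of 13 genes known to be driven by AP-1, 9 were positive (median +0.15, or +0.017 with the trends removed) and 0 were called. PLAUR, the urokinase receptor, gave +0.54 ± 0.16 with the groups apart, and the integrin ITGAX -0.26 ± 0.21. With the trends removed PLAUR was at +0.25 and ITGAX at -0.29. ITGAX was at -0.069 without APRIL column 3, -0.17 without control column 2 and -0.41 without APRIL column 2. Cytoskeletal targets of SRF gave 6 positive of 11 (median +0.19, 0 called), with ACTG1 at +0.30 ± 0.12 and the actin-binding tropomyosin TPM1 at +0.47 ± 0.20, both with the groups apart. TAGLN2 was at +0.49 ± 0.22, again with the groups apart, and VCL at -0.23 ± 0.20, and with the trends removed the list's median was -0.0023. ACTG1 was then at +0.044, TPM1 at +0.57, TAGLN2 at +0.17 and VCL at +0.0013, and ACTG1 was at +0.057 with quantile normalization. Without APRIL column 3, TAGLN2 was at +0.25 and VCL at -0.011.

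The lists that bear on serum and handling had medians near 0 for the values as deposited, with members in both directions. Of 11 SREBP2 targets, which respond to a lack of lipoprotein cholesterol, 7 were negative (median -0.068, 0 called, 0 at an unadjusted p under 0.05). HMGCS1 was at -0.27 ± 0.14 and MVD at +0.27 ± 0.22, and these were at -0.15 and -0.091 with the trends removed. MVD was at +0.048 without control column 1. Of 8 heat shock genes, 4 were positive and 4 negative (median +0.04, 0 called), and 2 were lower at an unadjusted p under 0.05, where 5.69% of all genes were. The chaperones HSPH1 and HSP90AA1 gave -0.40 ± 0.15 and -0.37 ± 0.13 with the groups apart, and HSPB1 +0.56 ± 0.26. With the trends removed HSPH1 was at -0.19, HSP90AA1 at -0.29 and HSPB1 at +0.068, and HSPB1 was at +0.35 without control column 1. The medians with the trends removed were -0.054 for the SREBP2 targets (2 of 11 positive) and -0.11 for the heat shock genes (2 of 8 positive). The serum state of the controls was not measured by any of these lists.

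Monocyte and myeloid markers were present for 11 of 12 genes, CD14, CSF1R, LYZ and SPI1 among them, as the label of the line leads one to look for. Their mean deviation per library ran from -0.084 to 0.40 with APRIL and from -0.36 to 0.021 in control, and their median difference of +0.19 was -0.0069 with the trends removed. By sign 9 were positive and 2 negative, with 0 called and 1 higher at an unadjusted limma p under 0.05, where 6.25% of all genes were. TYROBP had the largest positive difference at +0.89 ± 0.36 (SD 0.83 with APRIL and 0.26 in control), with the groups apart. LYZ had the largest negative at -0.14 ± 0.13, and these were at +0.41 and -0.24 with the trends removed. For the B cell markers the mean deviation ran from -0.081 to 0.16 with APRIL and from -0.078 to 0.10 in control. Markers of B cells had 4 of 9 genes in the table, T and NK cells 2 of 9, erythroid cells 1 of 6, and fibroblasts, epithelium and endothelium 0 of 11. MS4A1, CD3E and HBB were without rows. Their part in the values above was not tested.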

How the data were processed

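Members and lists were chosen with earlier results of these data known. Per the submitters' processing notes, bcl2fastq and TopHat2 2.0.13 were used with build hg19. The read counter, the annotation and any gene filter: not given in the sources used here. Libraries came from the TruSeq RNA v2 kit, per the labels' protocols, which does not mark the strand. Per the file headers the authors deposited log2 values scaled by a TMM factor (-4.96 to 15.4). A p-value and a fold (a linear ratio) for each gene were deposited beside them. An equal-variance two-sided test of the 8 values gave that p-value to within 8.8e-06, and neither is used as a result.

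Whole reads were recovered where a gene's 8 values were all log2 of reads plus 0.5 over one whole divisor, shifted by a library constant, at a chance expectation under 0.001 (11131 genes, and 0 of 500 with the constants moved). The divisor did not track transcript length (Spearman's rho = -0.0032 over 10642 genes).

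The test was limma 3.58.1 in R 4.3.3 on the log2 values, with intensity trend and robust empirical Bayes, two-sided, Benjamini-Hochberg adjusted over genes that reached 1 on the linear scale in 4 or more libraries, threshold 0.05. On simulated data for 11257 genes with 200 changed it recovered 65.0% of changes of 1 and 88.0% of changes of 2 log2 units, with 3.77% of its calls false. The simulated noise was independent between genes, without length or GC trends or libraries of unequal quality, so these rates need not hold for the real libraries. Length and GC trends were natural splines per library on the longest GENCODE 29 transcript, matched by symbol for 11035 genes. Named genes are all members and the 3 genes most correlated with each member. Per pathway list and for the myeloid markers they are those at an unadjusted p under 0.05 and the largest difference in each direction. SRF, CREB1, MYC, ZFP36 and FOSL1 were added after their values were seen. Python 3.11.15 was used for summaries and matplotlib 3.10.9 for plots.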

Additional observations from a re-analysis of the deposited data

Results flagged for a closer look

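One value stood apart by Dixon's criterion for 4 libraries: in JUND, control column 1 lay so far below the other 3 controls that the gap was 0.836 of the whole range, above the critical value of 0.829. It was the 1 such value among 16 groups of 4 libraries, where chance gives about 1 in 20 groups. JUND was at +0.33 without that library, and control column 1 was the lowest control in all 8 members.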

How the results depend on the processing

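No paired analysis was possible because the columns carry no replicate number. Depth limits DUSP1 most, with 18 to 59 reads a library. Limma called 0 genes under every alternative but quality weights (4 genes, no member), where APRIL column 1 had the largest weight. Values are log2 differences, and the cause of each move was not tested. JUNB (0.078 to 0.75), IER2 (0.051 to 0.46) and FOSL2 (-0.25 to -0.058) kept their sign in all 18 alternatives. Leaving out APRIL column 3 and control column 1, chosen after seeing the data, is called the smaller set here. The genes without overlap numbered 1571 in the smaller set, 1530 there with trends removed, and 1018 to 2667 with 1 library left out. Groups of fewer libraries lie apart more easily, so these counts cannot be set beside the 879 of all 8 libraries. Genes at an unadjusted p under 0.05 numbered 890 with trends removed, 846 in the smaller set, 814 with both, and ran from 507 to 2247 with 1 library left out. The lowest count, 507, came from leaving out control column 1 and the highest, 2247, from APRIL column 2. It was 669 when APRIL column 4 was dropped and 813 when control column 3 was.

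With quality weights JUN was -0.0451, EGR1 -0.148, DUSP1 -0.491, CREM -0.076 and VCL 0.00576. With trends removed JUND was -0.0371, FOS -0.0852, EGR1 -0.00965, DUSP1 -0.164, DUSP2 -0.203, VCL 0.00133 and MVD -0.0909. In the smaller set EGR1 was -0.0662, DUSP1 -0.259 and VCL 0.0024. There with trends removed JUN was -0.0103, JUND -0.0309, EGR1 -0.119, DUSP1 -0.338, DUSP2 -0.16, VCL 0.087, MVD -0.136 and HSPB1 -0.0316. DUSP1 was -0.0771 by voom and -0.00718 with quantile normalization. With 1 library left out EGR1 ran from -0.13 to 0.226, DUSP1 from -0.201 to 0.298 and CREM from -0.0501 to 0.496.

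List medians moved as follows. With trends removed the AP-1 partners were at -0.0633, other immediate early genes -0.0301, SRF and CREB factors -0.165, AP-1 targets 0.017, SRF cytoskeletal targets -0.00226, heat shock genes -0.109 and monocyte markers -0.00691. In the smaller set the partners were at -0.0449 and the SRF and CREB factors at -0.192. There with trends removed the partners were at -0.086, other immediate early genes -0.0659, SRF and CREB factors -0.14, AP-1 targets -0.009, cytoskeletal targets 0.0359, heat shock genes -0.0445 and monocyte markers -0.113. Quality weights gave -0.0739 for other immediate early genes, -0.196 for the SRF and CREB factors and -0.0456 for the phosphatases. Voom gave -0.0632 for cytoskeletal targets, -0.121 for SREBP2 targets and 0.195 for heat shock genes, and quantile normalization 0.0571, -0.133 and -0.0457. A stricter filter put the kinases at -0.0253. With 1 library left out the partners ran from -0.0536 to 0.149, SRF and CREB factors from -0.402 to -0.22, kinases from -0.0177 to 0.075, cytoskeletal targets from 0.024 to 0.293 and SREBP2 targets from -0.108 to -0.0268.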
